A study of Mus musculus with 4 samples.

Results

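A marker gate took 877 of 35694 nuclei of the mouse cerebral cortex, and it was built to find LAMP5 neurogliaform-type interneurons. Nuclei were chosen by their raw counts of unique molecular identifiers (UMIs, each standing for 1 captured RNA molecule). A nucleus needed at least 1 UMI of Gad1 or Gad2, which encode the enzymes that make GABA, and 0 UMIs of Slc17a7, the vesicular glutamate transporter of excitatory neurons. It also needed at least 1 UMI of Lamp5, Ndnf and Reln together and at least 2 UMIs of Pde11a, Kit and Alk together. Nuclei with a UMI of Sst or Vip, or with more than 1 UMI of Rarb, a gene of striatal neurons, were left out. The gate took 221 and 250 nuclei from the control libraries and 227 and 179 from the libraries of mice without a working creatine transporter (CrT-KO).

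LAMP5 neurogliaform cells are compact GABAergic neurons that are common in the superficial layers of the cortex. They release GABA diffusely and act on neighbouring cells through GABA-A and GABA-B receptors, and many of them make reelin, the secreted protein encoded by Reln. Most cortical neurons of this kind arise in the caudal ganglionic eminence of the embryo and carry Adarb2, whereas PV and SST interneurons arise in the medial ganglionic eminence and carry Lhx6 and Sox6.

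The study compared adult male mice at postnatal day 100 on a C57Bl/6J background. The 2 control animals were CrT+/y littermates and the 2 CrT-KO animals were CrT-/y, with exons 5 to 7 of the X-linked gene Slc6a8 deleted. Slc6a8 encodes the transporter that brings creatine, an energy buffer, into cells. The cortex of the right hemisphere of 1 animal gave 1 library, nuclei were sorted by flow cytometry, and no animal was treated. With 2 animals in each group, every p-value given here rests on 4 libraries.

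The libraries held 51507483 to 65240843 UMIs in 8282 to 9295 nuclei. The gated nuclei held 1559117 and 1821250 UMIs in the control libraries against 1750568 and 1121308 in the CrT-KO libraries, with medians of 6247, 6646, 6916 and 5679 UMIs per nucleus. CrT-KO 2 was the shallowest library in gated nuclei. Scrublet marked 8, 10, 7 and 2 of them as doublets. Pairs of libraries shared 12 to 19 barcodes, and no barcode was a gated nucleus in both libraries of a pair.

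Slc6a8 (ENSMUSG00000019558, plus strand of chromosome X, 73673150 to 73682502, GRCm38) was examined first, since it is the deleted gene. The exons that fall within the deleted numbers 5 to 7 under the numbering of both its 13-exon and its 14-exon transcript are shown to mark what the CrT-KO animals lack. All of their letters are in lower case, 5′ to 3′ on the plus strand of GRCm38.
Slc6a8 exon at chrX:73678636-73678770: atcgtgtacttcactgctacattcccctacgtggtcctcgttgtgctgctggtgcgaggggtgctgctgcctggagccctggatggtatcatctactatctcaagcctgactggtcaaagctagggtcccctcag
Slc6a8 exon at chrX:73678866-73678969: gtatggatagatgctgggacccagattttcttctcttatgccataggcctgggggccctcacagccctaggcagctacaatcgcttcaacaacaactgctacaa

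The gated nuclei of the control libraries held 16 and 6 UMIs of Slc6a8, and those of the CrT-KO libraries held 1 and 2. The groups did not overlap, and the UMIs were spread over 15, 5, 1 and 2 nuclei. Per UMI of the gated nuclei, CrT-KO had 0.161 times the control level (95% exact counting interval 0.0308 to 0.534). The gene was too low for the filter on counts. When it was fitted without that filter it did not pass the threshold (edgeR adjusted p 0.322). The counts cover the whole gene and the kit reads from the 3′ end, so UMIs from outside the deleted exons were counted too and the deletion itself was not measured.

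The gate turned out to hold distinct kinds of nuclei, and the label fitted only part of it. Reln was the gene that let most nuclei in, with a UMI in 795 nuclei (90.6%), and 550 nuclei (62.7%) passed on Reln alone. Lamp5, after which the gate is named, was seen in 199 nuclei (22.7%) and Ndnf in 212 (24.2%). Among the other gate genes, Alk, a receptor tyrosine kinase, was seen in 835 nuclei (95.2%). Pde11a, a phosphodiesterase, was seen in 334 nuclei (38.1%) and Kit, the receptor for stem cell factor, in 341 (38.9%).

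Pde11a and Kit together reached 2 UMIs in 355 nuclei, referred to here as Pde11a/Kit nuclei (81 and 101 in the control libraries, 99 and 74 in CrT-KO). The other 522 nuclei reached 2 UMIs only with Alk (140, 149, 128 and 105). This split used genes of the gate and was made after the marker levels had been seen, with no use of genotype. At least 5 UMIs of Adarb2 were found in 326 (91.8%) of the Pde11a/Kit nuclei and in 152 (29.1%) of the nuclei that needed Alk. Adarb2 was under 5 UMIs with at least 2 UMIs of Sox6 in 10 Pde11a/Kit nuclei and in 326 (62.5%) of the nuclei that needed Alk. Just under the Adarb2 limit lay 20 of 877 nuclei, with 2 to 4 UMIs, whereas 379 held 0 or 1. On the other side 478 held at least 5 UMIs, and 401 of them held 20 or more.

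**Figure D1:**
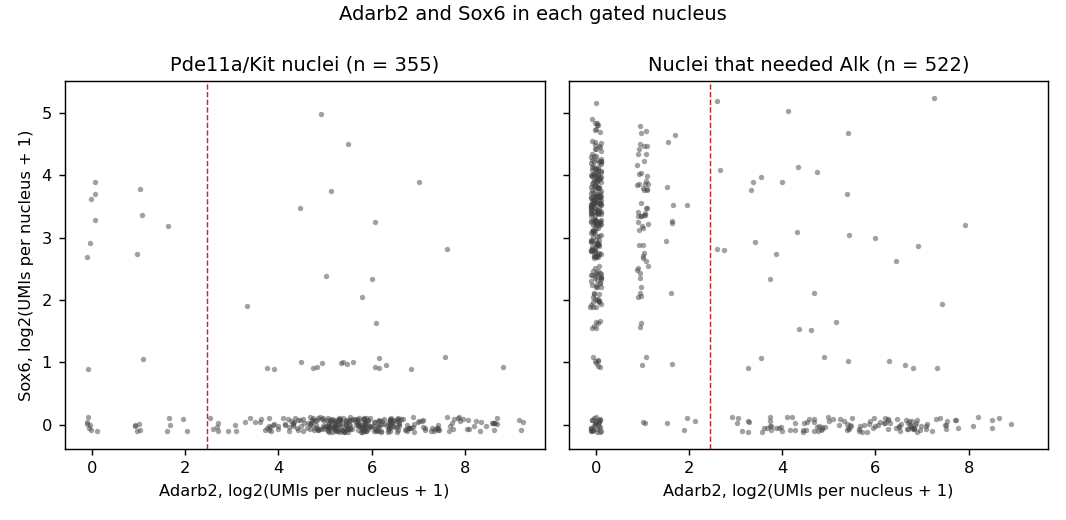
Each point is 1 gated nucleus, with its Adarb2 UMIs on the horizontal axis and its Sox6 UMIs on the vertical axis, both as log2(UMIs + 1) with a small random shift so that points can be told apart. The dashed line separates nuclei with 5 or more Adarb2 UMIs. The 355 Pde11a/Kit nuclei lie mostly along the bottom right, with Adarb2 and without Sox6, and most of the 522 nuclei that needed Alk lie along the left edge, with Sox6 and little Adarb2.

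The markers differed between the parts of the gate in the same direction. These levels are UMIs per 1000000 UMIs of the nuclei concerned, pooled over the 4 libraries. They are descriptions, because gate genes chose the nuclei. Lamp5 stood at 84.0 in Pde11a/Kit nuclei and at 18.0 in nuclei that needed Alk, where it was no higher than in nuclei with Slc17a7 and no Gad1 or Gad2 (21.1). Ndnf stood at 187 and 33.1, against 1.71 in those excitatory nuclei. Reln stood at 2096 and 960, against 794 in the SST gate, 148 in the VIP gate and 34.5 in the PV gate.

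The share of nuclei with a UMI gave the same order. Lamp5 was seen in 39.7% of the Pde11a/Kit nuclei, whose median depth was 5920 UMIs, and in 14.2% of the excitatory nuclei, whose median depth was 8639.5 UMIs. Ndnf was seen in 43.1% of the Pde11a/Kit nuclei and in 0.894% of the excitatory nuclei. The VIP, SST and PV gates named here held GABAergic nuclei outside the gate with at least 1 UMI of Vip, Sst or Pvalb and none of the other 2 genes, and counted 310, 247 and 173 nuclei.

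Genes that the gate did not use separated the 2 kinds of nuclei as well. Fgf13, an intracellular partner of sodium channels, stood at 3545 UMIs per 1000000 in Pde11a/Kit nuclei and at 566 in nuclei that needed Alk. Sv2c, a synaptic vesicle protein, stood at 399 and 74.7. Hapln1, which links hyaluronan to proteoglycans, stood at 72.1 and 8.52. By contrast Sox6 stood at 104 and 954, Lhx6 at 7.08 and 54.6 and Eya4, a transcriptional co-activator that had been listed as a LAMP5 marker, at 16.4 and 234. The SST gate stood at 1031 for Sox6 and 64.6 for Lhx6, and the PV gate at 1163 and 50.7.

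**Figure D2:**
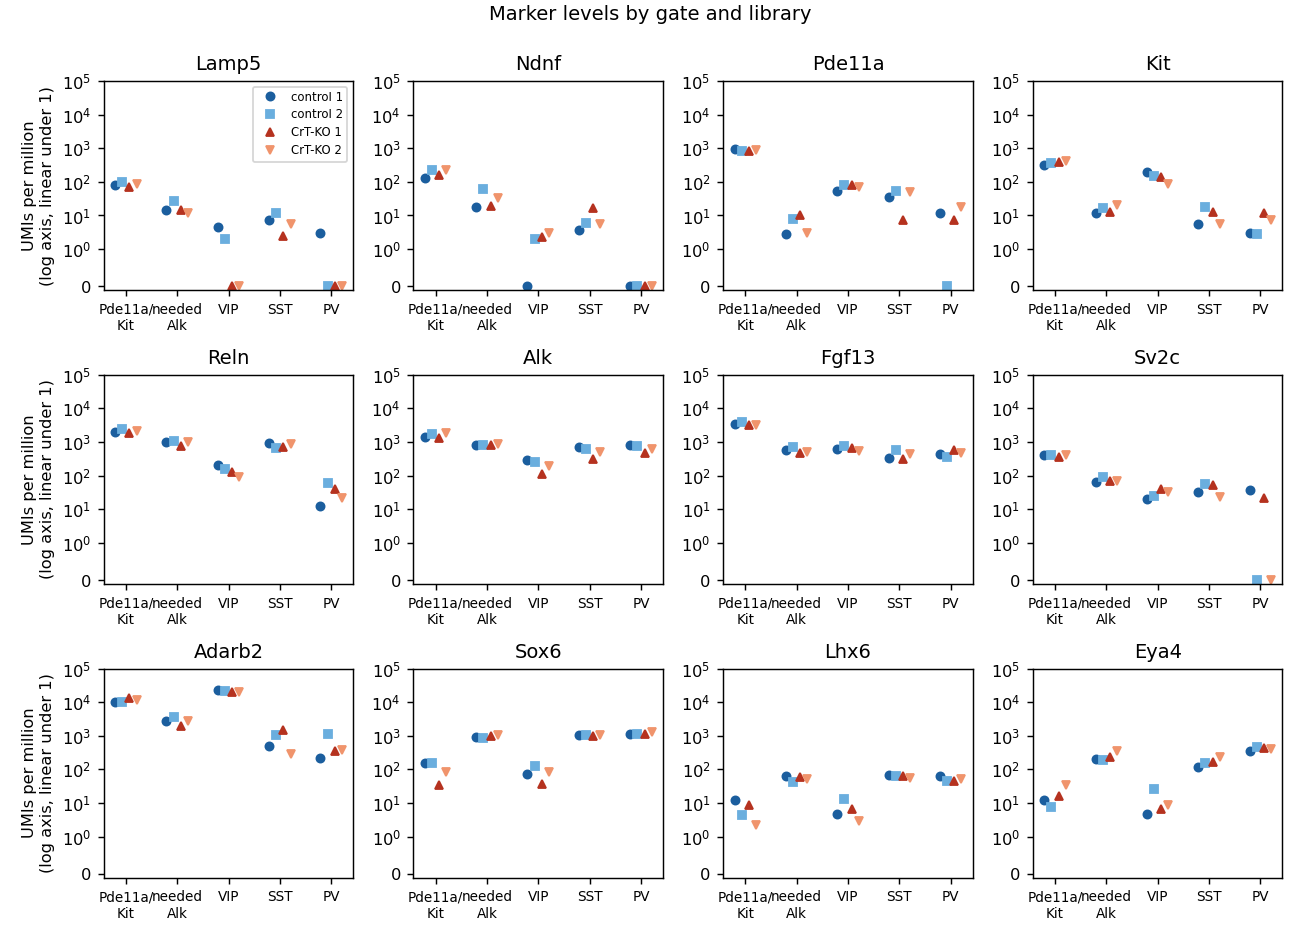
Each panel gives 1 gene in UMIs per 1000000 of the gate's UMIs (log axis, linear under 1), with 1 point per library, for the Pde11a/Kit nuclei, the nuclei that needed Alk and the VIP, SST and PV gates. Lamp5, Ndnf, Pde11a, Kit, Fgf13 and Sv2c are higher in every library of the Pde11a/Kit nuclei than in any library of the other gates, and Sox6, Lhx6 and Eya4 lie lower there than in the nuclei that needed Alk in all 4 libraries.

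Some textbook markers of neurogliaform cells were barely captured. Npy, the neuropeptide Y gene, stood at 16.6 UMIs per 1000000 in the whole gate and had a UMI in 7.98% of its nuclei. Cplx3, a complexin, stood at 1.44 and Id2, a transcriptional regulator, at 4.96. Trp73 and Lhx1, which mark the Cajal-Retzius cells that also make reelin, had 0 UMIs in all gated nuclei, which allows up to 3 UMIs in all by counting error, while Lhx5 had 2 UMIs and Ebf3 had 3.

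Among genes outside the gate's rule with at least 50 UMIs per 1000000 in Pde11a/Kit nuclei, Crispld1, a secreted cysteine-rich protein, stood apart most from the other gated nuclei and the VIP, SST and PV gates. Its lowest library in Pde11a/Kit nuclei was 5.27 times its highest library in any of those gates. The ratio was 4.44 for Fgf13 and 3.88 for Sv2c. Myo3b, an unconventional myosin, followed with 3.69, and Cacna2d1, an auxiliary subunit of calcium channels, with 3.07. In the other direction, Lama4, a laminin chain, stood at 84.9 in nuclei that needed Alk and at 1.77 in Pde11a/Kit nuclei, and Moxd1, a monooxygenase-like protein, at 89.4 and 3.096. These genes were chosen after their values were seen.

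The gate's limits fell on a slope rather than a gap. Just inside, 128 nuclei held exactly 2 UMIs of Pde11a, Kit and Alk together, and just outside, 211 nuclei held exactly 1 while meeting all other conditions. Adarb2 stood at 5499 UMIs per 1000000 just inside and 4226 just outside, Fgf13 at 550 and 379, and Lamp5 at 18.9 and 17.5. A further 218 nuclei entered with exactly 1 UMI of Lamp5, Ndnf and Reln together, and 1153 nuclei were left out with none.

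Genes listed as markers of other cell types were also counted in the gate. Summed over each marker list in UMIs per 1000000, oligodendrocyte markers ranged from 66.3 to 118 over the libraries, astrocyte markers from 84.7 to 144 and microglia markers from 28.6 to 37.8. Vascular markers ranged from 1.65 to 6.85, and Cldn5, which defines endothelial cells, was at 0. Excitatory markers ranged from 417 to 532, striatal markers from 1797 to 2217, SST markers without Sst from 3340 to 3915 and PV markers from 1814 to 2086. Most of the SST sum was Nxph1, at 2911, 2812, 3184 and 3226 in the gated nuclei. The Pde11a/Kit nuclei carried Nxph1 as well (2538, 3119, 3405 and 3199), so this sum does not by itself mark SST nuclei. In the excitatory nuclei astrocyte markers ranged from 416 to 456 and striatal markers from 1873 to 2436. In the gated nuclei astrocyte markers were higher in both control libraries (144 and 114) than in both CrT-KO libraries (109 and 84.7). Aqp4, a defining astrocyte gene, had 1 UMI in all gated nuclei. The part of these signals in the results was not tested.

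The gated nuclei made up 20.8% and 19.97% of the GABAergic nuclei in the control libraries and 18.4% and 16.7% in the CrT-KO libraries. Both CrT-KO values lay under both control values, and the means were 20.4% ± 0.623 and 17.6% ± 1.24 (SD, n = 2 each). The difference of -2.85 percentage points had an exact two-sided permutation p of 0.333, the smallest that 4 libraries allow. In a further comparison nuclei with under 2000 UMIs were left out, among them 112, 116, 112 and 98 GABAergic nuclei. All remaining nuclei were thinned to 2000 UMIs before gating. On this smaller set the shares were 9.61%, 11.7%, 9.50% and 9.95% and the groups overlapped (difference -0.931 points, exact permutation p 0.667).

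The Pde11a/Kit nuclei made up 7.64% and 8.07% of the GABAergic nuclei in controls against 8.04% and 6.90% in CrT-KO, and the groups overlapped (difference -0.385 points, exact permutation p 0.667). A loss of these nuclei in CrT-KO was not detectable with 2 libraries per group.

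The question of the study was which cells respond to the loss of creatine uptake. Gene levels in gated nuclei were compared between genotypes on UMIs summed per library. No gene of 8821 tested passed the threshold of an adjusted p under 0.1 in edgeR (0%), and 384 genes (4.35%) had an unadjusted p under 0.05. DESeq2 called none either. The 2 control libraries and the 2 CrT-KO libraries did not overlap for 32.4% of the genes, with 17% lower and 15.5% higher in CrT-KO. Leaving out 1 library gave 18 calls without control 1, 19 without control 2, 23 without CrT-KO 1 and 18 without CrT-KO 2, so the count of 0 depends on the full set of libraries.

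The smallest p-values belonged to Arhgap26 and Dpyd, which did not pass the threshold (edgeR adjusted p 0.172 for both). Levels are given from here as CPM, UMIs per 1000000 UMIs of the tested genes with the scaling factor of the fit. Arhgap26 (ENSMUSG00000118193), a GTPase-activating protein, measured 625 and 673 CPM in controls and 420 and 421 CPM in CrT-KO. Its log2 fold change was -0.63 (SE 0.11). Dpyd, the first enzyme of pyrimidine breakdown (chromosome 3, 118562129 to 119432924), measured 108 and 102 CPM in controls and 61.4 and 55.2 CPM in CrT-KO. Its log2 fold change was -0.84 (SE 0.15). Both genes were lower in each CrT-KO library than in each control library.

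Fgf1, a fibroblast growth factor, measured 160 and 175 CPM in controls and 108 and 101 CPM in CrT-KO (log2 fold change -0.67 ± 0.13 SE, adjusted p 0.321 in edgeR). Fgf1 lies within Arhgap26 on the opposite strand, and another annotated copy of Arhgap26 overlaps on the same strand. Whether counting used the strand was not stated, so the values of the pair cannot be fully separated.

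Further genes near the top of the ranking were lower in CrT-KO without passing the threshold (edgeR adjusted p 0.530 each). The ephrin receptor gene Ephb1 measured 75.1 and 64.2 CPM in controls and 41.9 and 37.7 CPM in CrT-KO. Ltbp1, which binds latent TGF-beta, measured 64.9 and 67.0 CPM against 38.4 and 39.5 CPM. Crim1, a membrane protein that binds BMPs, had a log2 fold change of -0.80 (SE 0.18). Cntnap5c, an adhesion protein of the neurexin superfamily, had one of -0.53 (SE 0.12). In each of these 4 genes the groups did not overlap.

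Other entries rested on few molecules or nuclei. Ebf1, a transcription factor, had 19 and 17 UMIs in the control libraries against 3 and 1 in CrT-KO, but 12 of the 19 came from 1 nucleus of control 1 and 15 of the 17 from 1 nucleus of control 2. The Wnt inhibitor Wif1 had 13 and 25 UMIs in the control libraries against 2 and 3 in CrT-KO. The peptide transporter Slc15a2 had 25 and 32 UMIs in the control libraries against 2 and 9 in CrT-KO, in 21, 27, 2 and 9 nuclei (log2 fold change -2.07 ± 0.53 SE, adjusted p 0.751 in edgeR). Wif1 was seen in 11, 15, 2 and 3 nuclei, and no nucleus held more than 4 of its UMIs. Ebf1 and Wif1 passed the filter on low counts only through the control libraries, so their separation was in part set by the filter.

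Few genes near the top were higher in CrT-KO. Ror1, a receptor for Wnt5a, measured 18.4 and 15.1 CPM in controls and 37.9 and 29.4 CPM in CrT-KO (log2 fold change 1.04 ± 0.26 SE, adjusted p 0.722 in edgeR). Man1a, a mannosidase of the Golgi, measured 187 and 150 CPM in controls and 244 and 229 CPM in CrT-KO. Sik2, a salt-inducible kinase, measured 200 and 221 CPM in controls and 282 and 284 CPM in CrT-KO. Gxylt2, a xylosyltransferase that modifies Notch-type repeats, measured 3.82 and 4.47 CPM against 15.5 and 11.9 CPM. Gxylt2 passed the filter on low counts only through the CrT-KO libraries, so its separation was in part set by the filter. The groups did not overlap in these 4 genes and none passed the threshold.

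Chaperone genes as a list lay lower in CrT-KO, in the gated nuclei and in the other gates examined. Of 14 cytosolic and mitochondrial chaperones 12 were tested and 0 passed the threshold, 9 had a log2 fold change below 0, and 8 (66.7%) did not overlap with CrT-KO lower, beside 17% of all genes. Their median log2 fold change was -0.50, beside 0.00 (-0.00132) over all tested genes. Hsp90ab1, the constitutive cytosolic HSP90, measured 36.9 and 36.9 CPM in controls and 19.5 and 7.35 CPM in CrT-KO (log2 fold change -1.33 ± 0.31 SE, adjusted p 0.530 in edgeR). It was seen in 52, 57, 32 and 8 nuclei. Hspa8, the constitutive cytosolic HSP70, measured 33.7, 22.9, 16.6 and 9.19 CPM in the same order. Hsph1, a nucleotide exchange factor for HSP70, measured 22.3, 31.8, 13.2 and 11.03 CPM, whereas Hspa9, the mitochondrial HSP70, measured 39.4, 38.5, 45.3 and 51.5 CPM.

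Among the chaperones of the endoplasmic reticulum 12 of 16 were tested and 0 passed, and 11 had a log2 fold change below 0. The groups did not overlap with CrT-KO lower for 6 (50%), beside 17% of all genes, and the median was -0.29. Hyou1, an HSP70-like chaperone of that compartment, measured 10.2, 10.1, 5.16 and 4.60 CPM and passed the filter on low counts only through the controls. Hspa5, the BiP chaperone, measured 24.8, 15.1, 12.6 and 12.9 CPM. In the Pde11a/Kit nuclei 6 of these genes were tested, 0 passed, and 4 had a log2 fold change below 0, beside 2975 of all 6039 genes. The groups did not overlap with CrT-KO lower for 2 (33.3%), beside 17.6% of all genes, and the median was -0.033, beside 0.0054. There 10 cytosolic and mitochondrial chaperones were tested, 0 passed, and 7 had a log2 fold change below 0. For 4 (40%) the groups did not overlap with CrT-KO lower, and the median was -0.31. CrT-KO 2, lowest for Hsp90ab1 and Hspa8, was also the shallowest library. The median share of mitochondrially encoded UMIs in gated nuclei was 0.0855% and 0.0742% in controls against 0.0710% and 0.0699% in CrT-KO. The part of depth and of this share in the chaperone values was not tested.

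**Figure D3:**
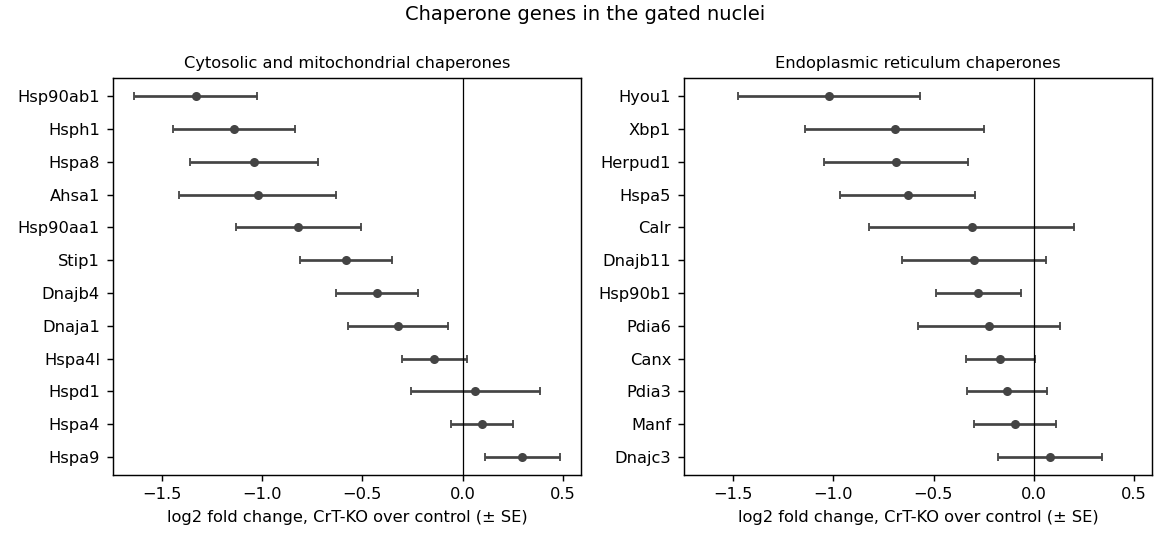
Points give the log2 fold change of CrT-KO over control for each tested chaperone gene in the gated nuclei, with its standard error as a bar, for cytosolic and mitochondrial chaperones and for those of the endoplasmic reticulum. Hsp90ab1 (-1.33), Hsph1 (-1.14) and Hspa8 (-1.04) lie farthest below 0, Hspa9 lies above 0, and no gene passed the threshold.

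Genes of the caudal ganglionic eminence had mostly positive log2 fold changes. Of 11 listed genes 8 were tested, 0 passed, and 5 (62.5%) did not overlap with CrT-KO higher, beside 15.5% of all genes, with a median log2 fold change of 0.21. Adarb2, an RNA-binding protein of the adenosine deaminase family, measured 5055 and 6218 CPM in controls and 6223 and 6481 CPM in CrT-KO. Prox1, a homeobox factor, measured 57.9 and 67.0 CPM in controls and 75.2 and 75.4 CPM in CrT-KO. The share of Pde11a/Kit nuclei among the gated nuclei was 36.7% and 40.4% in controls against 43.6% and 41.3% in CrT-KO. The share of gated nuclei with at least 5 UMIs of Adarb2 was 51.1% and 56.4% against 55.5% and 54.7%, and these overlapped. In the nuclei that needed Alk that share was 30.7% and 32.2% against 27.3% and 24.8%. The part of these shares in the gene values was not tested. Within the Pde11a/Kit nuclei 7 genes of the list were tested, 0 passed, 6 had a log2 fold change above 0, and the median was 0.27. In the nuclei that needed Alk 7 were tested, 0 passed, 2 had a log2 fold change above 0, and the median was -0.14. Of 7 tested medial ganglionic eminence genes in the gated nuclei 5 had a log2 fold change above 0, and their median was 0.02. The 4 tested SST markers were all above 0 there, with a median of 0.19, and 0 genes of either list passed.

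Receptors and channels through which such neurons act and are acted upon showed no call in the gated nuclei. Of 17 GABA-A receptor subunits outside the gate 12 were tested, with a median log2 fold change of 0.06. Gabrg3 measured 2582, 2767, 2375 and 2574 CPM, and Gabrb2 measured 671 and 776 CPM in controls and 787 and 974 CPM in CrT-KO (log2 fold change 0.28 ± 0.12 SE, adjusted p 1.00 in edgeR). Of 10 genes of GABA-B receptors, their auxiliary subunits and GIRK potassium channels 7 were tested, with a median of 0.06. The GABA-B receptor subunit gene Gabbr2 measured 692 and 738 CPM in controls and 744 and 763 CPM in CrT-KO.

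The 16 tested subunits of AMPA, kainate and NMDA receptors had a median of 0.05, the 23 potassium channel genes one of -0.02 and the 21 sodium and calcium channel genes one of 0.05. Of the reelin pathway 11 genes were tested with a median of 0.13. Dab1, the adaptor that relays the reelin signal, measured 2263 and 2748 CPM in controls and 2667 and 2451 CPM in CrT-KO, and these overlapped. The LAMP5 markers outside the gate had 13 of 18 genes tested and a median of 0.02, with Fgf13 at 1468 and 1924 CPM in controls and 1572 and 1636 CPM in CrT-KO.

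Genes of energy supply likewise gave no call. Of 94 nuclear genes of oxidative phosphorylation 52 were tested, with a median log2 fold change of -0.00 (-0.00154). Of 7 genes of creatine transport, synthesis and kinases 3 were tested. Ckb, the brain creatine kinase, measured 25.4 and 17.3 CPM in controls and 20.1 and 14.7 CPM in CrT-KO, and Ckmt1, a mitochondrial creatine kinase, measured 14.6 and 17.9 CPM in controls and 13.8 and 22.1 CPM in CrT-KO. Both overlapped between genotypes. Of 9 tested BMP and Wnt antagonists 8 had a log2 fold change below 0, with a median of -0.21, beside 4434 of all 8821 genes. In the Pde11a/Kit nuclei 9 were tested, 0 passed, 5 had a log2 fold change below 0, and the median was -0.27.

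Genes that earlier results of these data had named in interneurons were followed in the gated nuclei. Vwc2l, a secreted BMP antagonist, measured 96.1 and 67.0 CPM in controls and 103 and 89.2 CPM in CrT-KO. Dkk2, a Wnt antagonist, measured 10.8 and 33.5 CPM in controls and 8.61 and 4.60 CPM in CrT-KO. The Y-linked translation factor gene Eif2s3y measured 99.2 and 101 CPM in controls and 47.1 and 93.8 CPM in CrT-KO, with CrT-KO 1 alone far below the others. Hs3st4, which sulfates heparan sulfate, measured 318, 339, 405 and 295 CPM, and Spag16 had 11, 8, 11 and 5 UMIs. None passed the threshold (edgeR adjusted p 1.00 each), and Prdm16 and Trat1 were too low to be tested.

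When the Pde11a/Kit nuclei were taken alone, as a comparison added after the marker levels were seen, 10 of 6039 tested genes passed the threshold and all 10 were lower in CrT-KO (0.166%). DESeq2 called 0 genes on the same sums, with 45 at an unadjusted p under 0.05, against 291 (4.82%) in edgeR. The libraries of the 2 genotypes did not overlap for 34.1% of the genes. Leaving out control 1 gave 13 calls, control 2 gave 24, CrT-KO 1 gave 42 and CrT-KO 2 gave 19, and 4, 9, 6 and 6 of the 10 genes were among them. Kctd8 was in all 4 of these sets. Without the 8 doublets 2 genes were called, Grm7 and Ntng1.

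Kctd8, an auxiliary subunit of GABA-B receptors (chromosome 5, 69109285 to 69341679), measured 149 and 134 CPM in controls and 63.6 and 50.5 CPM in CrT-KO (log2 fold change -1.27 ± 0.23 SE, adjusted p 0.0284 in edgeR). It rested on 15, 14, 12 and 6 nuclei with a UMI. In the nuclei that needed Alk it measured 453 and 395 CPM in controls and 553 and 485 CPM in CrT-KO. There both CrT-KO libraries lay above both control libraries, without passing the threshold (adjusted p 0.939 in edgeR).

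Sox6 (chromosome 7, 115470872 to 116038796) measured 155 and 157 CPM in controls and 35.7 and 91.3 CPM in CrT-KO (log2 fold change -1.40 ± 0.27 SE, adjusted p 0.0284 in edgeR). Its UMIs came from 10, 11, 13 and 7 nuclei, and 33 of 101 in control 2 came from 1 nucleus. Nuclei with under 5 UMIs of Adarb2 held 45 of 73 and 22 of 101 UMIs in controls against 9 of 23 and 21 of 38 in CrT-KO.

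Grm7, Car10 and Ntng1 were further calls. Of 30 listed synaptic adhesion genes 27 were tested in these nuclei and 0 passed the threshold. Grm7, a presynaptic metabotropic glutamate receptor (chromosome 6, 110645581 to 111567230), measured 1123 and 1102 CPM in controls and 744 and 565 CPM in CrT-KO (log2 fold change -0.76 ± 0.16 SE, adjusted p 0.0308 in edgeR). Car10, a secreted carbonic anhydrase-related protein that binds neurexins, measured 335 and 299 CPM in controls and 146 and 195 CPM in CrT-KO (log2 fold change -0.91 ± 0.19 SE, adjusted p 0.0308 in edgeR). Ntng1, the adhesion protein netrin-G1, measured 108 and 232 CPM in controls and 83.7 and 28.8 CPM in CrT-KO, with a control spread wider than its gap to the nearest CrT-KO library.

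Dpyd was called here too, at 168 and 103 CPM in controls and 55.8 and 52.9 CPM in CrT-KO (log2 fold change -1.27 ± 0.26 SE, adjusted p 0.0308 in edgeR), and 42 of its 79 UMIs in control 1 came from nuclei with under 5 UMIs of Adarb2. Trhde, which degrades thyrotropin-releasing hormone, measured 155, 115, 72.9 and 43.3 CPM. Zfp804b, a zinc finger protein, measured 1933, 1279, 941 and 1019 CPM, Lhfpl3, a tetraspan membrane protein, measured 473, 372, 248 and 252 CPM, and the matrix protein Spon1 measured 53.1, 42.0, 17.1 and 4.81 CPM. These 4 genes had edgeR adjusted p-values of 0.0655, 0.0917, 0.0917 and 0.0917, and Spon1 rested on 7, 8, 9 and 2 nuclei. Spon1 passed the filter on low counts here only through the control libraries, so its separation was in part set by the filter.

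**Figure D4:**
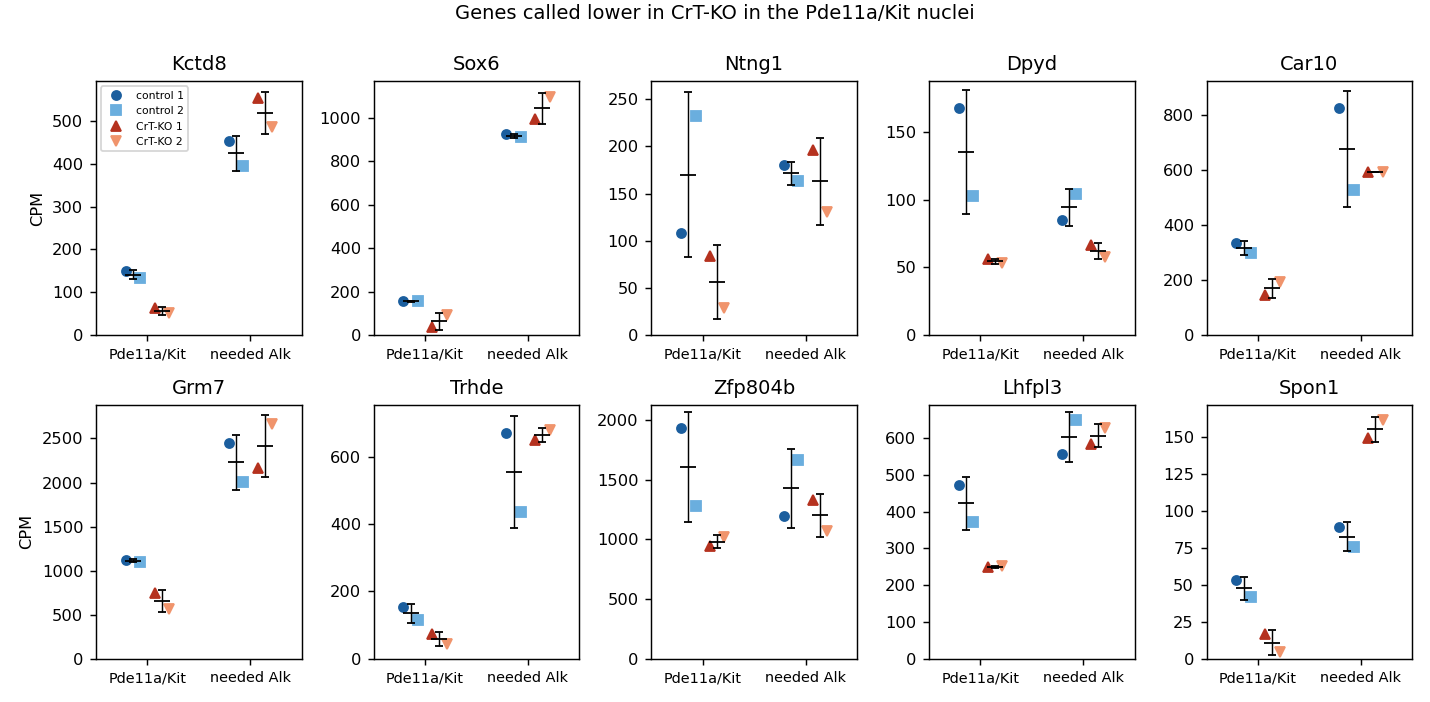
Each panel gives 1 of the 10 genes called in the Pde11a/Kit nuclei, in CPM on a linear axis from 0, with 1 point per library for the Pde11a/Kit nuclei and for the nuclei that needed Alk, and a black bar for the mean ± SD of each genotype (n = 2). In the Pde11a/Kit nuclei both CrT-KO libraries lie under both control libraries in every panel, while Kctd8, Sox6 and Spon1 lie higher in CrT-KO in the nuclei that needed Alk.

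Kctd8, Sox6, Trhde and Grm7 were higher in the nuclei that needed Alk than in the Pde11a/Kit nuclei in all 4 libraries, and the Pde11a/Kit nuclei differed between libraries in how many carried little Adarb2. Nuclei with at least 5 UMIs of Adarb2 made up 86.4% and 92.1% of the Pde11a/Kit nuclei in controls against 91.9% and 97.3% in CrT-KO. These shares overlapped between genotypes (exact permutation p 0.667), and their part in the calls was not tested. When the comparison was limited to the 326 nuclei with at least 5 UMIs of Adarb2 (70, 93, 91 and 72), 1 of 5735 genes was called (0.0174%). An unadjusted p under 0.05 was found for 249 (4.34%). The called gene was Car10 (log2 fold change -1.09 ± 0.19 SE, adjusted p 0.0965 in edgeR). Kctd8 and Sox6 missed the threshold in that edgeR fit (adjusted p 0.197) with log2 fold changes of -1.31 (SE 0.26) and -1.73 (SE 0.35), beside -1.27 and -1.40 in all Pde11a/Kit nuclei. Sox6 rested there on 28 and 79 UMIs in controls, against 14 and 17 UMIs in CrT-KO, and the groups did not overlap. Single nuclei held 13 and 10 of the 28 UMIs in control 1, and a single nucleus held 33 of the 79 in control 2. The Sox6 values in these nuclei therefore rested on few nuclei. Grm7 had a log2 fold change of -0.68 (SE 0.15, adjusted p 0.389 in edgeR), beside -0.76. The log2 fold change was -0.80 for Dpyd, beside -1.27, and -0.60 for Trhde, beside -1.14 (adjusted p 0.980 and 0.983 in edgeR). Ntng1 overlapped between genotypes in these nuclei, at 35.4 and 173 CPM in controls and 60.0 and 17.4 CPM in CrT-KO. In all 478 gated nuclei with at least 5 UMIs of Adarb2 edgeR called 0 of 7021 genes, with 325 (4.63%) at an unadjusted p under 0.05.

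Genes that missed the threshold in Pde11a/Kit nuclei included the secreted antagonists. Dkk2 measured 34.0 and 85.6 CPM in controls and 23.3 and 12.0 CPM in CrT-KO (log2 fold change -1.73 ± 0.42 SE, adjusted p 0.125 in edgeR). Vwc2l measured 80.6 and 46.7 CPM in controls and 133 and 108 CPM in CrT-KO (log2 fold change 0.99 ± 0.25 SE, adjusted p 0.226 in edgeR). Gabra2, a GABA-A receptor subunit, measured 240 and 283 CPM in controls and 181 and 166 CPM in CrT-KO (log2 fold change -0.59, edgeR adjusted p 0.492). The groups did not overlap for these 3 genes.

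In the nuclei that needed Alk, taken alone, 4 of 7766 tested genes passed the threshold (0.0515%), 3 lower (0.0386%) and 1 higher (0.0129%) in CrT-KO. Arhgap26 measured 653 and 719 CPM in controls and 416 and 433 CPM in CrT-KO (log2 fold change -0.69 ± 0.13 SE, adjusted p 0.0379 in edgeR). Fgf1, its overlapping neighbour, measured 174 and 188 CPM in controls and 106 and 94.2 CPM in CrT-KO (edgeR adjusted p 0.0379). Ltbp1 measured 54.9 and 73.6 CPM in controls and 28.1 and 25.8 CPM in CrT-KO (edgeR adjusted p 0.0648).

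Spon1 was the gene that was higher there, at 89.3 and 75.4 CPM in controls and 149 and 161 CPM in CrT-KO (log2 fold change 0.91 ± 0.17 SE, adjusted p 0.0379 in edgeR). DESeq2 called 0 genes on these sums, with 37 at an unadjusted p under 0.05, against 388 in edgeR. Without the TMM scaling factor edgeR called 0. Leaving out control 1, control 2, CrT-KO 1 or CrT-KO 2 gave 7, 7, 21 and 39 calls, with 1, 0, 4 and 4 of the 4 genes among them.

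The 326 nuclei that needed Alk and held under 5 UMIs of Adarb2 and at least 2 of Sox6 were also compared alone. There 4 of 6572 genes passed the threshold (0.0609%), 3 lower (0.0456%) and 1 higher (0.0152%) in CrT-KO, 349 (5.31%) had an unadjusted p under 0.05, and the genotypes did not overlap for 33.6%. Arhgap26 and Fgf1 were again among the lower genes. Tafa1, a secreted chemokine-like protein, measured 252 and 172 CPM in controls and 109 and 86.8 CPM in CrT-KO (log2 fold change -1.08 ± 0.21 SE, adjusted p 0.0397 in edgeR). Pde1c, a phosphodiesterase regulated by calcium and calmodulin, was the higher gene, at 73.0 and 83.7 CPM in controls and 143 and 200.3 CPM in CrT-KO.

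Whether the genotype effect differed between the 2 parts of the gate was assessed with a term for genotype by gate in edgeR, blocked on library. It passed the threshold for 4 of 7126 genes (0.0561%), Kctd8, Spon1, Sox6 and Trhde, each lower in CrT-KO in Pde11a/Kit nuclei relative to the nuclei that needed Alk. In UMIs per 1000000, Spon1 fell from 52.0 and 40.4 to 16.3 and 4.57 in Pde11a/Kit nuclei and rose from 89.0 and 73.7 to 148 and 155 in the others (log2 difference of the effects -2.84, SE 0.45, edgeR adjusted p 0.0178).

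The gated nuclei were then compared with other GABAergic nuclei of the same libraries. Against the VIP gate the genotype effect differed for 19 of 7557 genes (0.251%), of which Alk belongs to the gate. Hs3st4 stood at 321 and 333 UMIs per 1000000 in control gated nuclei and 403 and 286 in CrT-KO, beside 140 and 100 in the control VIP gate and 366 and 347 in the CrT-KO VIP gate (log2 difference -1.48, SE 0.23, edgeR adjusted p 0.000699). The genotypes lay apart in the VIP gate and overlapped in the gated nuclei. Nxph1, a secreted ligand of neurexins, stood at 2911, 2812, 3184 and 3226 in gated nuclei, beside 257 and 461 in the control VIP gate and 147 and 177 in the CrT-KO VIP gate. With the Pde11a/Kit nuclei in place of all gated nuclei 5 of 6004 genes were called (0.0833%), among them Hs3st4, Nxph1 and the collagen gene Col19a1. Against the SST gate the Pde11a/Kit nuclei gave 0 of 6260 genes in edgeR, with 249 at an unadjusted p under 0.05.

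Against the PV gate the effect differed for 14 of 7530 genes (0.186%). Egfem1 stood at 1262 and 1457 UMIs per 1000000 in control gated nuclei and 1645 and 1475 in CrT-KO, and at 308 and 389 in the control PV gate and 141 and 44.3 in the CrT-KO PV gate (log2 difference 2.06, SE 0.27, edgeR adjusted p 4.94e-06). Rgs6, a regulator of G protein signalling, stood at 534, 574, 492 and 639 in gated nuclei and at 136, 189, 41.4 and 55.3 in the PV gate. In both genes the PV gate was lower in CrT-KO and the gated nuclei were not. The PV gate held 173 nuclei, so its sums were small. With the Pde11a/Kit nuclei 7 of 5965 genes were called (0.117%).

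Against the SST gate no gene of 7648 was called in edgeR (0%), with 345 at an unadjusted p under 0.05. Against all other GABAergic nuclei 1 gene of 10993 was called (0.0091%). That gene was Dpyd, at 109 and 100 UMIs per 1000000 in control gated nuclei and 61.1 and 53.5 in CrT-KO, beside 145 and 132 in the other nuclei of controls and 162 and 152 in those of CrT-KO (log2 difference -1.03, SE 0.15, edgeR adjusted p 0.0727). With the Pde11a/Kit nuclei in place of all gated nuclei 0 of 10780 genes were called in edgeR, with 455 at an unadjusted p under 0.05.

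**Figure D5:**
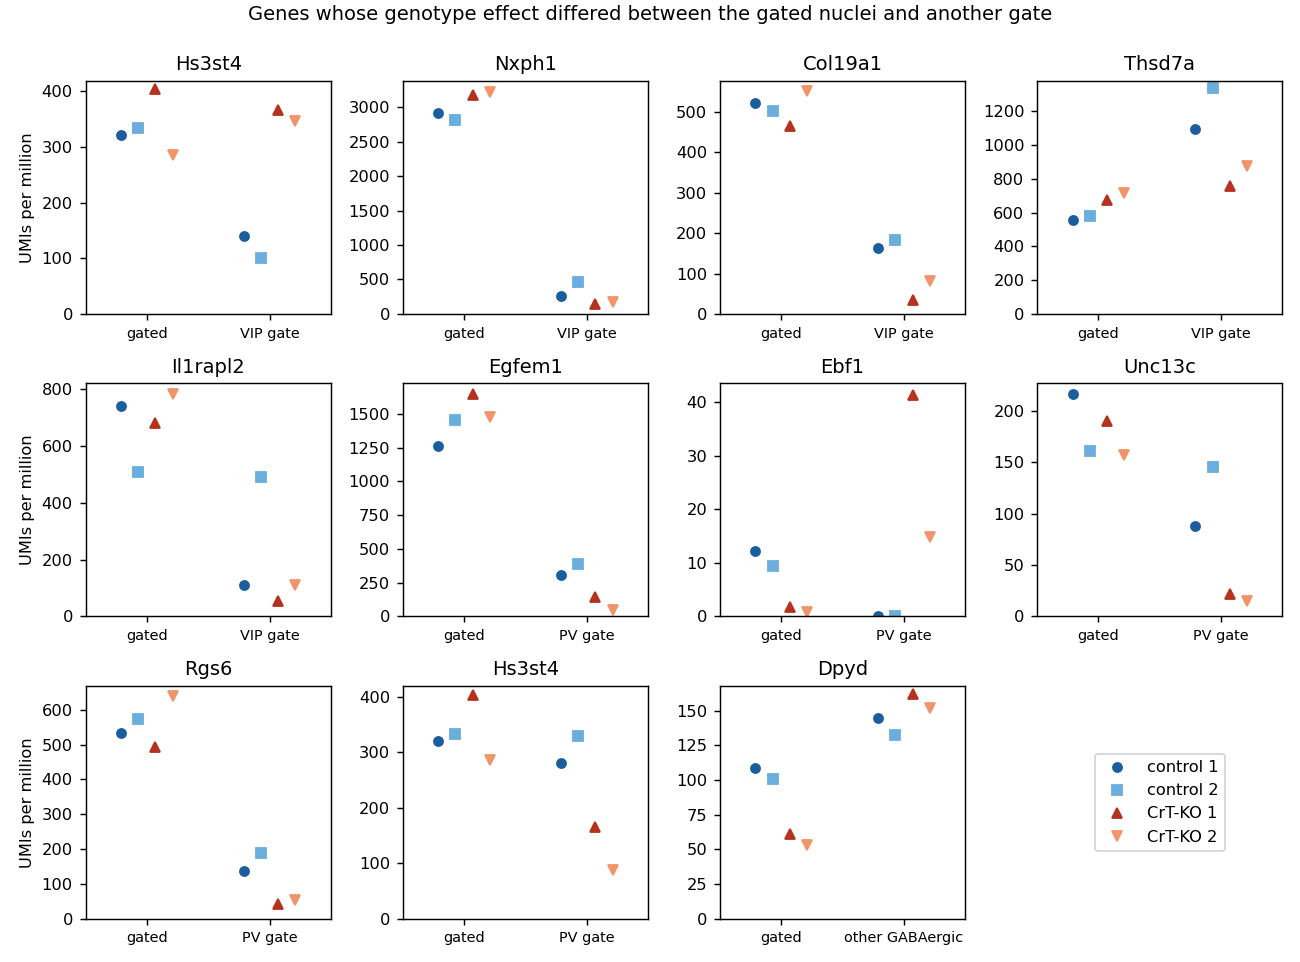
Each panel gives 1 gene named for a genotype effect that differed between the gated nuclei and the VIP gate, the PV gate or all other GABAergic nuclei, in UMIs per 1000000 on a linear axis from 0, with 1 point per library. For Hs3st4, Nxph1 and Col19a1 against the VIP gate and for Egfem1, Unc13c and Rgs6 against the PV gate, the 2 control and 2 CrT-KO points lie apart in the other gate, while Dpyd lies apart in the gated nuclei (109 and 100 against 61.1 and 53.5).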

How the data were processed

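The authors deposited 1 matrix of raw UMI counts per gene and nucleus for each of the 4 libraries (2 control, 2 CrT-KO), with whole numbers and no scaling. Single-nucleus libraries were made with a 10x Genomics 3′ kit. The submitters' processing notes name Cell Ranger 3.1.0, Seurat 3.1.4 and FastQC with GRCm38 (mm10), and the study's methods state that whole gene bodies were counted, so intronic reads entered the counts. Strand use is not given in the sources used here. Nuclei were gated on raw UMIs as described in the report, and no annotation of cell types was used. The gate, its markers, the gene lists and the comparisons were chosen with earlier results of these data known.

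UMIs were summed per library and gate and tested with edgeR 4.0.16 in R 4.3.3 (quasi-likelihood test with TMM factors and Benjamini-Hochberg adjustment, threshold 0.1). Genes were first filtered to a minimum of 15 counts in sum. They also needed about 10 counts, scaled to library size, in as many libraries as the smallest group held (2 with all libraries). A gene could therefore be tested through the libraries of 1 genotype alone. The study tested nuclei as replicates, which was not done here. Each standard error is the fold change divided by the square root of F. Nuclei are not replicates, so shares were tested over the 4 libraries (exact permutation, two-sided, 6 assignments). Alternatives were DESeq2 1.42.0, no filter, no TMM factor, a replicate block, leaving out single libraries, Scrublet doublets removed (scanpy 1.11.5), stricter gates and a threshold of 0.05. On simulated counts for 8639 genes, with 200 changed, edgeR recovered 96% at a log2 fold change of 1 and 100% at 2. These counts were modelled on the gated nuclei, and 26 unchanged genes were called. The changed genes were drawn from those with more than 200 UMIs in sum, and all genes shared 1 dispersion. Recovery of genes with fewer UMIs or a wider spread was therefore not assessed. Intervals cover counting error only.

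Named genes were Slc6a8, the gate genes, called genes whose groups did not overlap (up to 15 per direction), then the smallest p-values up to 20 genes, called members and up to 4 members by mean CPM from each of 34 lists, genes named earlier and up to 5 genes per interaction. Any other gene named was chosen after its values were seen. The split of the gate was an added alternative. Gene IDs were matched to GENCODE vM21 (21816 of 21933).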

Additional observations from a re-analysis of the deposited data

Results flagged for a closer look

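Genes were singled out where the genotype effect in the gated nuclei differed from that in another gate of the same libraries by an edgeR interaction test, and the first 5 by p are given for each gate.

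Against the VIP gate these were Hs3st4 and Nxph1 (edgeR adjusted p 0.000699 each), Col19a1 (0.00117), Thsd7a (0.00741) and Il1rapl2 (0.0101). Col19a1, a collagen, stood at 521 and 502 UMIs per 1000000 in control gated nuclei and 467 and 551 in CrT-KO, and at 163 and 183 in the control VIP gate and 34.4 and 80.9 in the CrT-KO VIP gate. Thsd7a, a thrombospondin-type membrane protein, was lower in the CrT-KO VIP gate (758 and 875) than in the control VIP gate (1093 and 1340) and higher in CrT-KO gated nuclei (675 and 717) than in controls (557 and 578). Il1rapl2, a synaptic adhesion gene, had 490 in the VIP gate of control 2 against 110 in control 1, 52.7 in CrT-KO 1 and 111 in CrT-KO 2, so 1 library stood apart.

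Against the PV gate these were Egfem1 (edgeR adjusted p 4.94e-06), Ebf1 (0.000741), Unc13c and Rgs6 (0.000743 each) and Hs3st4 (0.00195). Unc13c, which primes synaptic vesicles, stood at 217, 161, 190 and 157 UMIs per 1000000 in gated nuclei and at 87.6 and 146 in the control PV gate and 21.9 and 14.8 in the CrT-KO PV gate. Hs3st4 stood at 281 and 329 in the control PV gate and 166 and 88.5 in the CrT-KO PV gate, the opposite direction to the VIP gate. Ebf1 had 0 and 0 UMIs in the control PV gate and 17 and 4 in the CrT-KO PV gate, and most of its UMIs in control gated nuclei came from 2 nuclei.

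Against all other GABAergic nuclei Dpyd was singled out (edgeR adjusted p 0.0727). Between the Pde11a/Kit nuclei and the nuclei that needed Alk these were Kctd8 and Spon1 (0.0178 each) and Sox6 and Trhde (0.0776 each). Sox6 and Trhde had log2 differences of -1.58 (SE 0.29) and -1.43 (SE 0.27).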

How the results depend on the processing

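The depth of 2 libraries per group limits every comparison. In the gated nuclei edgeR called 0 genes with all libraries and 18 to 23 with 1 library left out, where the lone sample of a group is assumed to vary like the others. It called 21 without the filter on low counts, 1 without the TMM factor and 2 in nuclei without other excitatory or myelin markers, and 10 and 4 in the Pde11a/Kit nuclei and the nuclei that needed Alk. In the Pde11a/Kit nuclei the count of 10 became 0 in DESeq2, 16 without the filter, 6 at a threshold of 0.05, 2 without doublets, 1 with Adarb2 of at least 5 UMIs and 13 to 42 with 1 library left out. In the nuclei that needed Alk the count of 4 became 0 in DESeq2, 18 without the filter, 0 without the TMM factor and 7 to 39 with 1 library left out. The cause was not tested.

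The same replicate number marks no stated pairing, and deviations of same-numbered libraries correlated at 0.0920. With the number as a replicate block 3 genes were called in the gated nuclei (Dpyd, Cntnap5c and Arhgap26), 7 in the Pde11a/Kit nuclei and 21 in the nuclei that needed Alk. The difference from the VIP gate covered 19 genes, 7 without doublets, 3 without the library block and 5 with the Pde11a/Kit nuclei. That from the PV gate covered 14 genes, 17 without doublets, 4 without the library block and 7 with the Pde11a/Kit nuclei, and that from other GABAergic nuclei 1 gene, 0 with the Pde11a/Kit nuclei.

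The share of gated nuclei kept its direction, with differences of -3.73 to -1.97 points when 1 library was left out. Of 559 alternatives for 50 results on named genes, 425 kept direction and side of the threshold, 61 no longer passed it, 57 newly passed it and 16 changed sign, in 7 genes that were not called in the gated nuclei. Their log2 fold changes with 1 library left out ran from -0.15 (without CrT-KO 1) to 0.30 for Hs3st4, -0.31 to 0.32 (without control 1) for Spag16, which had 0.15 without CrT-KO 2, -0.059 (without control 2) to 0.19 for Kctd8, which had -0.052 without CrT-KO 1, -0.073 (without CrT-KO 2) to 0.096 for Sox6, which had -0.038 without control 2, -0.23 to 0.045 (without control 1) for Grm7, -0.24 (without control 2) to 0.43 for Trhde and -1.36 to 0.080 (without CrT-KO 2) for Tafa1. The sign also changed for Kctd8 in a stricter gate (-0.11), for Sox6 without the TMM factor (-0.013), for Tafa1 without doublets (0.12), and without nuclei holding other markers for Sox6 (-0.043), Trhde (-0.030) and Tafa1 (0.34).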
